A study of Mus musculus with 2 samples.

Results

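The cells described here are those of the skeletal muscle lineage in eye cups of newborn mice (postnatal day 0, P0). Droplet barcodes needed 200 or more genes and a mitochondrial share of 15% or less. Each muscle-lineage cell then had at least 1 unique molecular identifier (UMI, a tag that marks 1 captured transcript) from at least 3 of 10 muscle genes, Myod1, Myog, Myf5, Pax7, Des, Ttn, Actc1, Tnnt1, Chrna1 and Cdh15. At least 1 of those genes had to be Myod1, Myog, Myf5, Pax7, Cdh15 or Chrna1, and no UMI of the pericyte gene Rgs5 was allowed. The cells were thus chosen by detection of these genes, which is no finding. This gave 171 of 26158 barcodes, 108 of 14131 in the control and 63 of 12027 in the mutant. There was 1 library per genotype, each made from 3 pooled eye cups, and all animals carried floxed Myrf on both alleles. The control was Myrf fl/fl and the mutant was Rx>cre Myrf fl/fl, in which the Rx>cre transgene deletes Myrf in the early eye field, the tissue that forms retina and retinal pigment epithelium. Muscle does not come from the eye field. Cornea, lens and optic nerve had been dissected away and the tissue dissociated with papain. Since neither genotype was replicated, nothing was tested, every interval below is a 95% interval for counting error alone, and the spread between pools or libraries is not known.

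Skeletal muscle forms when progenitors marked by the transcription factors PAX7 and MYF5 turn on MYOD1 and then myogenin (MYOG), leave the cell cycle, fuse and fill with contractile protein. The muscles that move the eye arise in the head, where PAX3, a main factor of trunk and limb muscle, is not used. Cell fusion is carried out by the membrane proteins myomaker (Mymk) and myomixer (Mymx), and the nerve contact is built around the acetylcholine receptor, whose subunits include Chrna1, Chrnb1, Chrnd and Chrng.

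Muscle-lineage cells were deep. They held a median of 9615.5 UMIs in the control (588 to 28047) and 10457 in the mutant (538 to 33359), against 4231 and 4990 UMIs for all kept barcodes of the same libraries. A rule that needs UMIs of 3 genes favours deep barcodes, so this depth is in part set by the choice. When barcodes were thinned to 2000 UMIs before the rule, 39 control and 27 mutant cells passed it. The median mitochondrial share of the muscle-lineage cells was 3.13% and 3.00%. Among them 49 control cells (45.4%) and 19 mutant cells (30.2%) also held at least 3 markers of one other cell class, most often mesenchyme (21 and 5 cells), retinal progenitors (13 and 10), neurogenic cells (12 and 7) or lens (11 and 0). The remaining 59 control and 44 mutant cells are called unmixed below. The doublet caller Scrublet marked 23 (21.3%) and 10 (15.9%) of the muscle-lineage cells, against 11.6% and 10.1% of all kept barcodes. The defining markers Higd1b (pericytes), Alas2 (red cells), Sox10 and Foxd3 (neural crest and glia), Pou4f2 (retinal ganglion cells) and Aipl1 (photoreceptors) were at 0 in these cells in both libraries, but other markers of those classes were not. Summed photoreceptor markers reached 60.6 and 99.4 CPM against 607 and 782 CPM in all other cells, glial markers 89.5 and 236 against 899 and 1012 CPM, and mural markers 118 and 121 against 157 and 125 CPM. The mural sum includes Rgs5, which the rule keeps at 0 in the lineage but not in other cells. Smooth muscle markers were higher in the lineage, at 1208 and 1163 CPM against 253 and 191 CPM, and 7 and 4 cells held at least 3 of them. Most of that sum was Acta2 (886 and 946 CPM) and Tagln (272 and 159 CPM), while Myh11, Cnn1 and Lmod1 had 17, 4 and 8 UMIs in the control and were at 0 in the mutant. Their part in the results was not tested. The pools also differed in sex. Cells showing Xist without Y-linked genes made up 17.6% of control and 47.6% of mutant muscle-lineage cells. Over all kept barcodes these shares were 7.30% and 69.8%, so the lineage lay above its library in the control and below it in the mutant. No muscle-lineage barcode was shared between the libraries, although 59 barcodes were shared overall.

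Myrf, the deleted gene, had 1 UMI in the control muscle-lineage cells and 0 in the mutant ones, where 3 counts would allow up to 3.87 CPM (UMIs per 1000000 UMIs of the group). It could therefore not be compared in this lineage. All other control cells held 882 Myrf UMIs (11.4 CPM) and all other mutant cells 129 (1.72 CPM), so the lower level lay in the library labelled mutant.

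Promoters of Myog and Chrna1, both genes of the rule, and of Chrng, a further receptor subunit, are shown, because the MYOD family binds E-boxes (CANNTG). The sequences run 5′ to 3′ from 250 bases before to 50 bases after the RefSeq start (GRCm38.p6), and capitals mark every E-box. Myog lies at chr1:134289754-134290053 on the plus strand, Chrna1 at chr2:73580289-73580588 on the minus strand and Chrng at chr1:87205561-87205860 on the plus strand.
Myog: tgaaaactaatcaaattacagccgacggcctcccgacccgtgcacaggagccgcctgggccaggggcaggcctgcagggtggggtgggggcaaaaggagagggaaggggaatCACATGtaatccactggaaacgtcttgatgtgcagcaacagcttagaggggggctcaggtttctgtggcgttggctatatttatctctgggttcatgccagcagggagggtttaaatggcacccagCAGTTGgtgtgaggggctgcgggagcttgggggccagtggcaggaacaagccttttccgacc
Chrna1: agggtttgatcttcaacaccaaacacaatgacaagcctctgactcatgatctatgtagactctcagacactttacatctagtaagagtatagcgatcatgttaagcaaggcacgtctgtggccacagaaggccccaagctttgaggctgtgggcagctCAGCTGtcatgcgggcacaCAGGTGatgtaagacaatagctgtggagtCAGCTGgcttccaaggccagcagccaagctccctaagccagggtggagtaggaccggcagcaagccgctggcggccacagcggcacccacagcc
Chrng: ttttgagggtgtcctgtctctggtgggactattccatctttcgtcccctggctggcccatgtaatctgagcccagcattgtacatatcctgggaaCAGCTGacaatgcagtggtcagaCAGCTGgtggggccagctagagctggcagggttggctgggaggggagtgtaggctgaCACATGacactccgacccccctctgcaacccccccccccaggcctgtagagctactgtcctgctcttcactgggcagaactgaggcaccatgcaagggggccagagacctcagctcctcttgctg
The Myog window held 2 E-boxes and the Chrna1 and Chrng windows 3 each. CAGCTG, one form of the E-box, was found 2 times in each receptor promoter and 0 times at Myog. CANNTG and CAGCTG read the same on both strands, so 1 search covers both. Of the 25 gate and leading genes 15 had a promoter in the table. Of these 12 (80.0%) held an E-box against 72.3% of all 32851 promoters, and 3 of the 15 held CAGCTG against 16.3%. A match is a letter pattern and not a measured binding site.

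The 10 genes of the rule were spread unevenly over the cells that they chose, and these values are a description of the choice. Myod1 (chr7:46376474-46379099) had a UMI in 50.9% of control and 54.0% of mutant cells. Myf5 was found in 61.1% and 52.4%, Pax7 in 44.4% and 46.0%, and Myog (chr1:134289989-134292548) in 35.2% and 42.9%. Cdh15, the M-cadherin of muscle precursors, was the most widely detected required gene, in 63.9% and 74.6%. In retinal progenitors of the same libraries, which should lack these genes, the shares were 0.172% and 0.089% for Myod1, 0.408% and 0.237% for Myog, 0.047% and 0.044% for Myf5, and 0.157% and 0.311% for Cdh15. Ttn, the gene of the giant sarcomere protein titin, was less exclusive. It was found in 54.6% and 60.3% of muscle-lineage cells but also in 11.6% and 7.09% of retinal progenitors. Depth differed between these cell types, and after thinning every cell to 1000 UMIs Myog was found in 20.95% and 31.0% of muscle-lineage cells and in 0.079% and 0.074% of progenitors, and Ttn in 8.57% and 20.7% against 2.80% and 1.22%. Thinning left out 3 control and 5 mutant muscle-lineage cells.

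**Figure D1:**
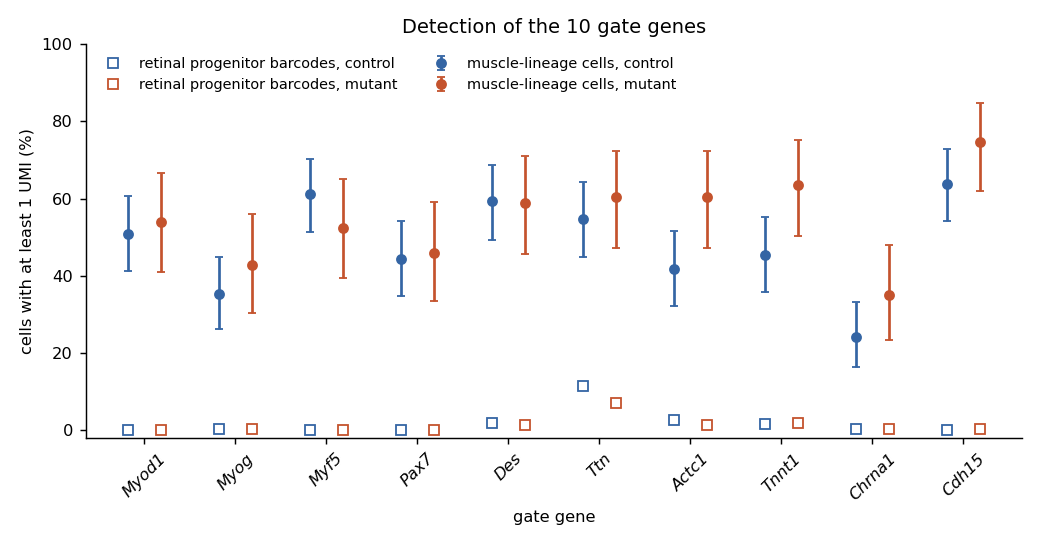
Share of cells with at least 1 UMI of each of the 10 genes of the rule (percent, y axis), for muscle-lineage cells (filled circles with exact 95% binomial intervals) and retinal progenitor barcodes (open squares) of each library. The muscle-lineage shares lie between 24.1% and 74.6%, and Ttn is the gene with the largest share in progenitors.

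The border of the rule is described by the cells just inside and just outside it. With exactly 3 of the 10 genes there were 33 control and 14 mutant cells, and with 2 genes, 1 of them required, 54 and 27 barcodes stayed outside. Msc encodes the progenitor factor musculin and is not part of the rule. It measured 266 and 160 CPM just inside, 55.0 and 17.3 CPM just outside and 211 and 110 CPM with at least 5 of the genes. Other muscle genes outside the rule were lower just inside than with at least 5 genes. Mymx measured 15.9 and 16.8 CPM just inside against 200 and 454 CPM, and Mymk 3.97 and 8.40 against 78.2 and 224 CPM. Chrnb1 measured 19.9 and 33.6 against 84.2 and 66.7 CPM, and Fgfr4 111 and 33.6 against 152 and 103 CPM. Col1a1, a collagen of connective tissue, measured 5755 and 20318 CPM just inside and 28623 and 34892 CPM just outside, while the cells with at least 5 genes held 2178 and 128 CPM.

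Outside the rule's genes, 64 of 2004 well-measured genes were at least 4-fold above all other cells in both libraries (3.19%). The leading gene was Mymx (chr17:45600971-45602102), at 124 CPM in control muscle-lineage cells and 328 CPM in mutant ones, against 0.48 and 0.24 CPM in all other cells. It was joined by Mymk, with 49.7 and 168 CPM against 0.35 and 0.24 CPM. The progenitor genes Msc (276 and 147 CPM) and Fgfr4, a fibroblast growth factor receptor of muscle precursors (140 and 119 CPM), stood in the same list. Mrln, which encodes the micropeptide myoregulin, an inhibitor of the calcium pump, measured 207 and 191 CPM. Vgll2, a cofactor of TEAD factors in muscle, measured 61.5 and 95.5 CPM, and the homeobox gene Barx2 78.7 and 73.6 CPM. Chrnb1, a subunit of the muscle acetylcholine receptor, measured 64.2 and 65.8 CPM. Ank1, Fitm1, Gm28653, Traf3ip3, Jsrp1, Tnni2 and Neb completed the 15 leading genes.

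Genes of trunk and limb muscle were almost absent, and genes of the head list were uneven. Of 7 listed head genes 2, Msc and Alx4, were at least 4-fold above all other cells in both libraries. Alx4, a homeobox gene of head mesenchyme, had 35 and 30 UMIs (31.6 and 38.7 CPM against 6.31 and 4.35 CPM in other cells). Tcf21 and Tbx1, both used in branchial head muscles, had 3 and 13 UMIs and 2 and 1 UMIs, and the 13 mutant Tcf21 UMIs lay in 1 cell. Of 8 trunk and limb genes, Pax3, Lbx1, Hoxa5, Hoxc6, Hoxc8 and Hoxa10 had no UMI in any of the 171 cells. Meox1 had 9 control UMIs and Meox2 had 3, with 0 in the mutant. Pax3 was not detectable at this depth, where 3 counts would be 2.71 CPM of the control and 3.87 CPM of the mutant cells.

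The cells were grouped by detection of Pax7, Myf5 and Myog, genes of the rule, so the groups are a description. Pax7 or Myf5 without Myog was found in 62 control cells (57.4%) and 29 mutant cells (46.0%), and Myog without either in 31 (28.7%) and 19 (30.2%). Both were found in 7 and 8 cells and neither in 8 and 7. Myog UMIs were held unevenly. Of the cells with Myog 12 control and 9 mutant cells had a single UMI, whereas 17 cells in each library had at least 10, with 12 to 138 UMIs in the control and 15 to 286 in the mutant. Another kind of cell was picked out after values were seen, by at least 200 UMIs per 10000 from 50 contractile genes. There were 4 such cells in the control and 7 in the mutant. They had 588 to 3189 and 538 to 7598 UMIs, with 3 of the 4 and 5 of the 7 under 2000, held 0 to 3 Myog UMIs, and gave 6.12% to 14.9% and 4.83% to 21.3% of their UMIs to contractile genes. No other muscle-lineage cell exceeded 1.14% in the control or 1.55% in the mutant. Another 18 control and 10 mutant kept barcodes passed this limit without passing the rule, at medians of 762.5 and 628.5 UMIs, and none of them held Rgs5.

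**Figure D2:**
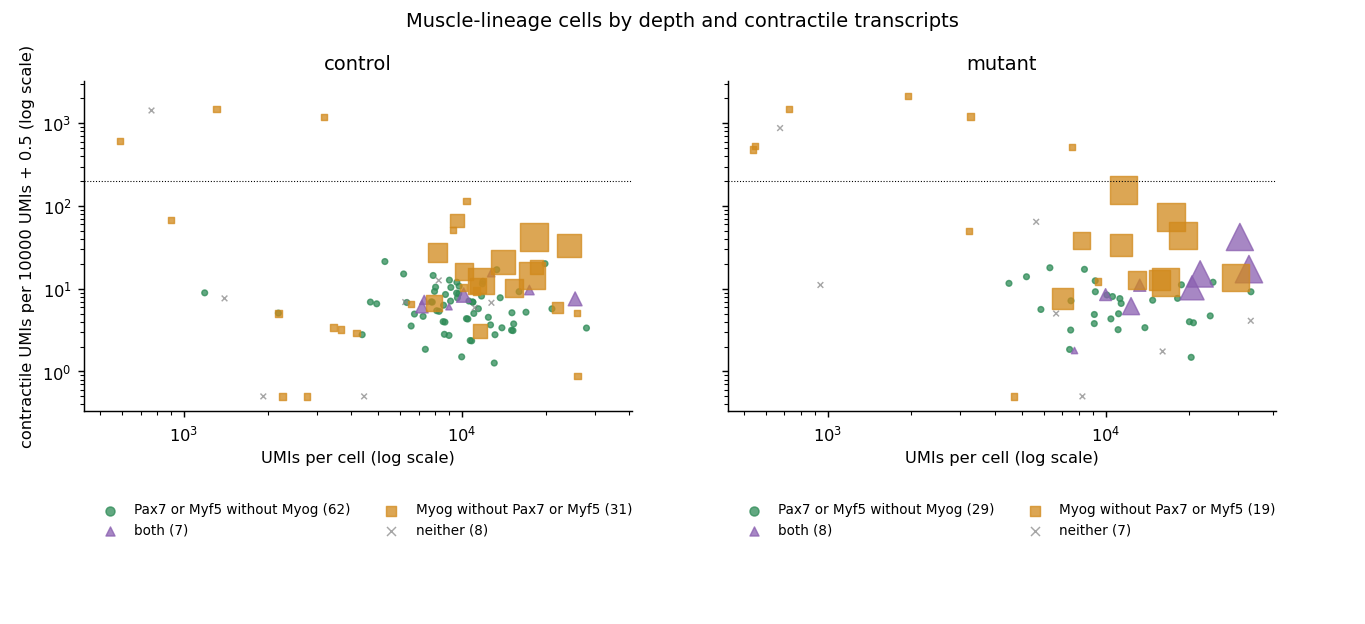
Each of the 108 control and 63 mutant muscle-lineage cells by its UMIs (x axis, log scale) and its contractile UMIs per 10000 UMIs with 0.5 added (y axis, log scale), with the symbol showing Pax7, Myf5 and Myog detection and the size growing with Myog UMIs up to 100. The 4 control and 7 mutant cells above the dotted line at 200 lie between 588 and 3189 and between 538 and 7598 UMIs, and the cells with at least 10 Myog UMIs lie below the line at 7002 UMIs or more.

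The 50 cells with Myog but neither Pax7 nor Myf5 were set against the 91 cells with Pax7 or Myf5 but no Myog, with both libraries summed, for 6979 genes. Of these 555 (7.95%) were at least 2-fold higher and 583 (8.35%) at least 2-fold lower in the Myog cells, and the median of all was a log2 ratio of 0.01. Pax7, Myf5 and Myog formed these groups and are set by that choice, which also touches the other genes of the rule. Among 15 measured progenitor genes 9, Pax7 included, were at least 2-fold lower in Myog cells, and Dll1, a Notch ligand, and Megf10 were at least 2-fold higher, with a median of -1.09. Msc measured 422 CPM in Pax7 or Myf5 cells and 52.3 CPM in Myog cells of the control, and 260 and 49.8 CPM in the mutant (log2 ratio -2.79). Chodl, a membrane lectin, measured 301 and 40.0 CPM in the control and 241 and 5.54 CPM in the mutant (-3.29). Spry1, an inhibitor of growth factor signalling, and Heyl, a Notch target, had log2 ratios of -2.52 and -3.14, both lower in Myog cells in each library. Mstn, the gene of the growth inhibitor myostatin, was likewise lower (-2.04, on 53 against 6 UMIs).

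Genes of cell fusion were split. Mymx had 1 UMI in 62 control and 0 in 29 mutant Pax7 or Myf5 cells and 130 and 157 UMIs in 31 and 19 Myog cells, a log2 ratio of 8.16. Mymk had 4 and 1 UMIs against 51 and 79 UMIs (5.45), and the adhesion gene Jam3 measured 52.7 and 45.5 CPM against 320 and 537 CPM (2.96). These 3 of 8 measured adhesion and fusion genes were at least 2-fold higher in Myog cells and 2 were at least 2-fold lower, and the median was -0.45. Vgll2, named above, had 9 and 0 UMIs in Pax7 or Myf5 cells and 51 and 49 UMIs in Myog cells. The cell cycle inhibitors Cdkn1c and Cdkn1a were higher in Myog cells with log2 ratios of 1.11 and 2.49. Cdkn1c was already abundant before, at 4422 and 4120 CPM in Pax7 or Myf5 cells and 8387 and 10977 CPM in Myog cells.

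The parts of the sarcomere and its supply were higher in Myog cells in most measured genes. At least 2-fold higher were 5 of 6 myosin genes (median 4.35), 12 of 14 thin filament genes (3.07), 6 of 8 Z-disc and titin genes (2.05), 6 of 8 calcium coupling genes (2.16) and 4 of 5 muscle energy genes (4.37). Actc1, Tnnt1, Des and Ttn in these lists belong to the rule. Without them, an alternative added after seeing the data, 10 of 12 thin filament genes (3.07) and 5 of 6 Z-disc genes (3.39) were at least 2-fold higher. The exception in the opposite direction was Ankrd1, a stretch-responsive ankyrin repeat gene, lower in Myog cells (-2.39). Of 6 measured genes of the nerve junction 3 were higher, the receptor subunits Chrna1 (2.84, a gene of the rule) and Chrng (10 and 15 UMIs) and the MuSK activator Dok7 (3.58), while Chrnb1 (0.10) and Rapsn, which anchors the receptor (-0.47), lay within 2-fold. Mef2c and Mef2a, partners of the MYOD family, had log2 ratios of 2.93 and 1.68. How far this held depended on the contractile-rich cells, as 9 of the 11 lay in the Myog group and 0 in the Pax7 or Myf5 group. Without them, an alternative added after seeing the data, the medians were 2.52 for myosin (5 of 6 at least 2-fold higher), 1.72 for the thin filament (10 of 14) and 1.22 for Z-disc and titin (5 of 8). Some genes had reached 20 UMIs only through those cells. With that minimum applied again, 3 of 4 myosin genes were at least 2-fold higher, 9 of 13 of the thin filament, 3 of 5 of the Z-disc list and 3 of 7 of calcium coupling (medians 2.52, 1.60, 1.29 and 0.87), and 1 energy gene was left, at 0.72. In control cells with at least 10 Myog UMIs, Tnnt3 and Sln were at 0 UMIs and Tnnc2 at 4.10 CPM, against 10.9, 10.9 and 15.5 CPM in control Pax7 or Myf5 cells, with counting intervals that overlap. In the mutant the same genes measured 17.2, 34.5 and 17.2 CPM against 10.7, 32.1 and 21.4 CPM. Without mixed cells the medians were 4.40 for myosin, 3.26 for the thin filament and -1.06 for progenitor genes.

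Several genes of calcium handling and energy supply had few UMIs. Atp2a1, the calcium pump of fast fibres, had 2 and 0 UMIs in Pax7 or Myf5 cells of control and mutant and 23 and 12 UMIs in Myog cells. Stac3, needed for coupling of the calcium channels, had 4 and 3 UMIs against 15 and 17, and the mitochondrial subunits Cox6a2 and Cox8b had 0 and 1 UMIs in all Pax7 or Myf5 cells together against 24 and 26 in Myog cells. Without the contractile-rich cells the Myog cells held 5 and 15 of these. Jsrp1, a protein of the sarcoplasmic reticulum, was present in both, at 58.9 and 64.3 CPM and at 120 and 205 CPM. Atp2a2, the pump of slow fibres and of many other cells, measured 43.4 CPM in Pax7 or Myf5 cells and 108 CPM in Myog cells of the control but 69.6 and 66.4 CPM in the mutant. Tnnt1, the slow troponin T, measured 112 and 415 CPM in the control and 278 and 304 CPM in the mutant, higher in Myog cells of both. How far the libraries differed in this was not tested.

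Imprinted and growth genes formed the most abundant group. Dlk1 measured 3161 CPM in control and 3004 CPM in mutant Pax7 or Myf5 cells and 1415 and 919 CPM in Myog cells (log2 ratio -1.33). Meg3, a noncoding RNA of the same imprinted locus, measured 1812 and 1810 CPM against 981 and 991 CPM, so its levels were close in both libraries. Igfbp5, which binds insulin-like growth factors, measured 501 and 661 CPM against 268 and 33.2 CPM. Of the 10 measured partners and inhibitors of the MYOD family 3 were at least 2-fold higher and 1, Twist1 (-2.18), at least 2-fold lower. Id3, an inhibitor of these factors, measured 464 and 562 CPM in Pax7 or Myf5 cells and 535 and 77.5 CPM in Myog cells, with no shared direction.

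Cells with many Myog UMIs and contractile-rich cells were then described side by side. In the 17 control and 17 mutant cells with at least 10 Myog UMIs, Actc1, the cardiac actin that embryonic muscle uses first, measured 2300 and 4218 CPM, while Acta1, the actin of mature skeletal muscle, measured 28.7 and 134 CPM. Mymx measured 533 and 866 CPM there, Tnnt2 348 and 569 CPM, and the fast light chain Myl1 16.4 and 31.0 CPM. In the contractile-rich cells, whose high contractile levels follow from how they were chosen, Acta1 measured 27849 and 26022 CPM. Mymx had 0 and 3 UMIs there, with upper limits of 630 and 573 CPM, which do not set it apart from the level above in the control. Those 4 and 7 cells held 79.1% and 86.1% of all Acta1 UMIs of the lineage, 77.1% and 87.9% of those of the muscle creatine kinase Ckm, and 7.66% and 7.06% of those of Actc1. Per UMI they were nevertheless rich in Actc1, at 8713 and 6211 CPM. Tnnt2, the cardiac troponin T that embryonic muscle also uses, had 0 and 7 UMIs in them, or 458 CPM in the mutant. Myod1 was at 143 and 104 CPM in Pax7 or Myf5 cells and 467 and 331 CPM in cells with at least 10 Myog UMIs, and the 0 and 1 UMIs in contractile-rich cells have upper limits of 630 and 364 CPM, so no lower level can be read there. Embryonic and perinatal myosin, Myh3 and Myh8, had 20 and 16 control UMIs and 42 and 36 mutant UMIs, and the contractile-rich cells held 10 and 9 of those control UMIs and 31 and 20 of those mutant UMIs.

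**Figure D3:**
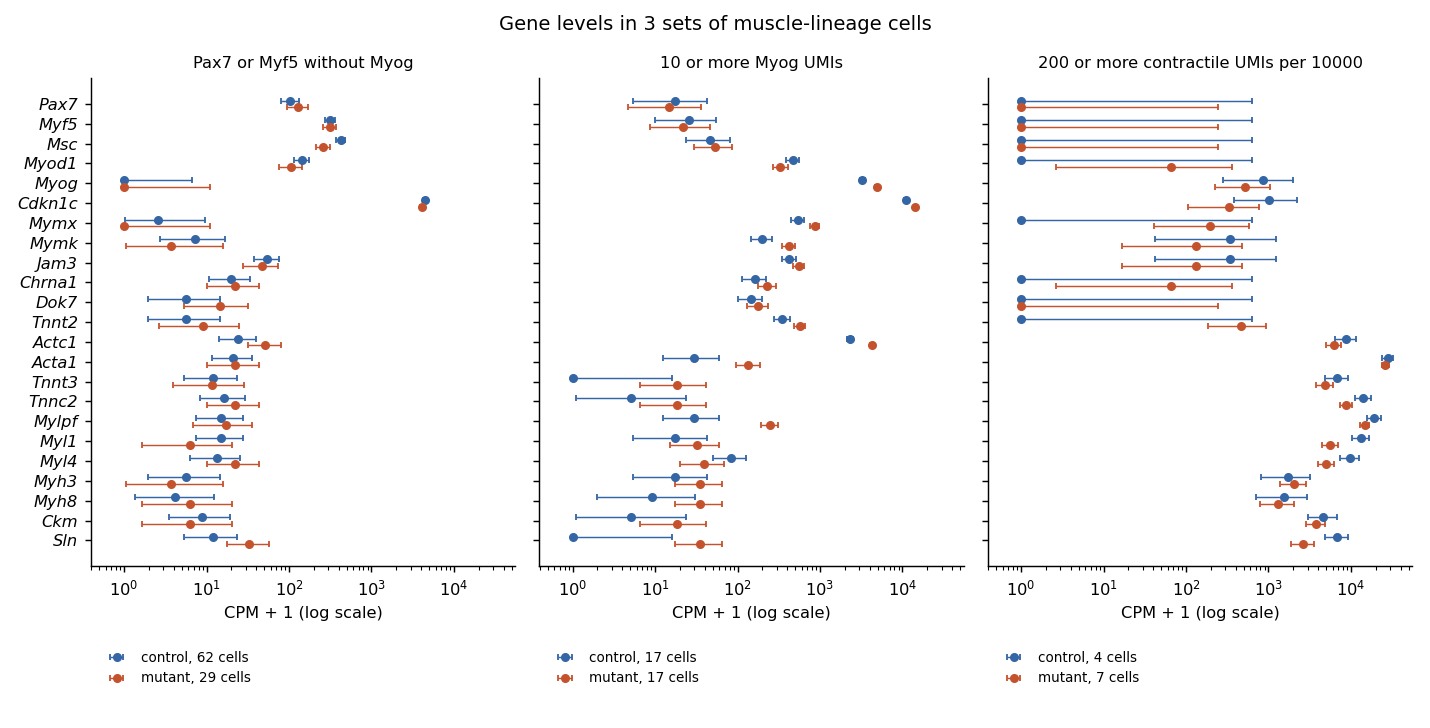
CPM with 1 added (x axis, log scale) of 23 genes in cells with Pax7 or Myf5 and no Myog, cells with at least 10 Myog UMIs and cells with at least 200 contractile UMIs per 10000, for control and mutant with exact 95% Poisson intervals of the counts. Msc is higher in the first set than in the second, Mymx and Tnnt2 stand above the first set in the second (Tnnt2 at 348 and 569 CPM), and Acta1 is highest in the third, at 27849 and 26022 CPM.

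Beyond the lists, the genes most clearly higher in Pax7 or Myf5 cells were Ntn4, Slc43a3, Col15a1, Adamts5, Tnc, Vcan, Nppc, Col6a6, Dtx4 and Col18a1, several of which encode proteins of the extracellular matrix. Col15a1, a basement membrane collagen, measured 371 and 369 CPM in Pax7 or Myf5 cells and 58.4 and 11.1 CPM in Myog cells (log2 ratio -3.13). Tnc, the gene of tenascin C, measured 76.0 and 131 CPM against 9.23 and 0 CPM, and Vcan, the gene of versican, 216 and 281 CPM against 36.9 and 5.54 CPM. In unmixed cells the ratios were -3.42 for Col15a1, -4.28 for Tnc and -5.33 for Vcan. The corresponding genes higher in Myog cells were Lyz2, Krt12, C1qb, Pf4, Gpha2, C1qa, Coro1a, C1qc, Ms4a6c and Tyrobp, which mark macrophages or corneal epithelium. A single mixed cell held 191 Lyz2 UMIs, another 108 of 110 Krt12 UMIs and another all 87 C1qb UMIs. None of these 3 genes had a UMI in the unmixed Pax7 or Myf5 and Myog cells.

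Signs of cell division were scored as at least 2 UMIs from 15 G2/M genes after thinning each cell to 1000 UMIs. They were found in 16 of 105 control muscle-lineage cells (15.2%, 8.97 to 23.6) and 10 of 58 mutant ones (17.2%, 8.59 to 29.4). Retinal progenitors of the same libraries had 45.4% and 46.1%, mural cells 9.48% and 11.6% and mesenchyme 16.1% and 11.7%. Unthinned, the muscle-lineage shares were 47.2% and 49.2%. By stage, 6 of 62 control (9.68%) and 7 of 29 mutant (24.1%) Pax7 or Myf5 cells held at least 2 UMIs of S phase genes, against 1 of 29 (3.45%) and 0 of 16 Myog cells. The G2/M shares by stage did not follow that order, with 9.68% (3.63 to 19.9) and 13.8% (3.89 to 31.7) in Pax7 or Myf5 cells. In Myog cells they were 20.7% (7.99 to 39.7) and 18.8% (4.05 to 45.6), from 6 of 29 and 3 of 16 cells. The stage intervals overlap for both lists, so no order can be read. In the control 17 of 31 Myog cells were mixed and 10 Scrublet-marked, against 26 and 10 of 62 Pax7 or Myf5 cells. In the mutant these were 5 and 2 of 19 against 8 and 6 of 29, and their part was not tested. The share of all muscle-lineage cells with G2/M genes was 7.23% in the control and 12.5% in the mutant once the barcodes marked by Scrublet were removed.

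The lineage made up 0.764% of control barcodes (0.627 to 0.922) and 0.524% of mutant barcodes (0.403 to 0.670), a log2 ratio of -0.55 (-1.02 to -0.08). The order depended on the denominator. Among barcodes outside the neural retina the shares were 3.61% of 2993 and 4.51% of 1397, a log2 ratio of 0.32 (-0.15 to 0.78). Mesenchyme, a neighbouring tissue, had shares of 17.3% and 9.05% (log2 ratio -0.93) and mural cells 1.51% and 1.66% (0.14). Restricting to unmixed cells left 59 and 44, with a log2 ratio of -0.19 (-0.79 to 0.40). Among cells showing Y-linked genes without Xist it was -0.45 (-1.58 to 0.53), and among those showing Xist alone -2.37, from 19 of 1031 control and 30 of 8392 mutant cells. How much muscle stayed on each eye cup at dissection is not recorded, so dissection and genotype cannot be told apart.

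**Figure D4:**
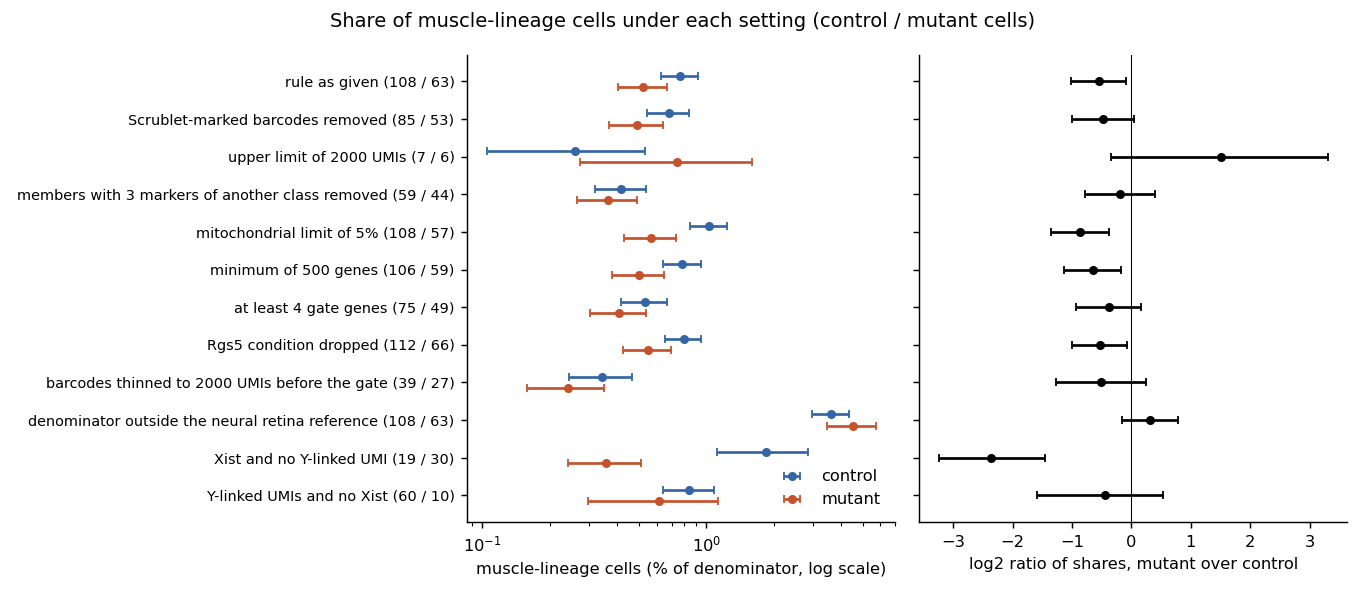
Muscle-lineage cells as a percentage of each denominator (left, log scale, exact 95% binomial intervals) and the log2 ratio of mutant over control (right, with its counting interval) under the rule as given and 11 other settings, with the number of control and mutant cells beside each. The ratio as given is -0.55, and it lies above 0 for the denominator outside the neural retina and for an upper limit of 2000 UMIs.

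Gene levels were then set side by side between genotypes for 7804 genes with at least 20 UMIs in the lineage. Of these 293 (3.75%) were at least 2-fold higher and 218 (2.79%) at least 2-fold lower in the mutant, and the median of all genes was a log2 ratio of 0.08. Scaling by trimmed means moved that median to -0.03, so differences of that size carry no direction, and gave 215 higher and 292 lower genes. Control cells held 841 Myog UMIs (760 CPM) and mutant cells 1448 (1869 CPM), a log2 ratio of 1.30 (1.17 to 1.42), and 1.88 in unmixed cells. Myog was found in 38 of 108 and 27 of 63 cells, with at least 10 UMIs in 17 of the 108 and 17 of the 63. The median positive cell held 5.5 Myog UMIs in the control against 36 in the mutant. Cells with at least 10 Myog UMIs were thus a larger part of the mutant lineage. They held 94.8% and 99.2% of all Myog UMIs, at 3267 and 4952 CPM. The part of this cell mix in the Myog ratio was not tested. The cells with at least 10 Myog UMIs were also deeper in the mutant, with a median of 15639 UMIs against 11706, and the part of depth was not tested. Myod1 measured 205 and 183 CPM (-0.16), Myf5 194 and 160 CPM (-0.28), Pax7 64.2 and 67.1 CPM (0.06) and Myf6 10.8 and 12.9 CPM. Myog, Myod1, Myf5 and Pax7 are genes of the rule, so these levels are a description of the chosen cells.

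Mymx and Mymk were higher in the mutant, while their list as a whole lay near all genes. Mymx had 137 UMIs in 21 control cells and 254 UMIs in 17 mutant cells, a log2 ratio of 1.40 (1.10 to 1.71), and Mymk 55 UMIs in 16 cells and 130 in 19, a ratio of 1.73 (1.29 to 2.24). The ratios were 1.75 and 2.38 in unmixed cells. The cells with at least 10 Myog UMIs held 94.9% and 98.8% of the Mymx UMIs. They also held 87.3% and 93.8% of the Mymk UMIs. Within them Mymx measured 533 and 866 CPM and Mymk 197 and 421 CPM, and the part of cell mix was not tested. Mymx and Mymk were the 2 of 9 measured adhesion and fusion genes at least 2-fold higher. At least 2-fold lower were 0, and the list's median of 0.12 was close to that of all genes. Of 16 progenitor genes none passed 2-fold in either direction and the median was -0.21. The counting interval lay below 0 for 3 of them. Heyl had 52 and 18 UMIs (-0.99, -1.88 to -0.22), Msc 305 and 114 UMIs (-0.90, -1.23 to -0.59) and Chodl 216 and 96 UMIs (-0.65, -1.02 to -0.30). In unmixed cells 3 of the 16 were at least 2-fold lower and 1 at least 2-fold higher, with a median of -0.12 and a ratio of -1.02 for Msc. Of 7 junction genes Chrng (11 and 17 UMIs) was just past 2-fold higher and Chrnd (18 and 5 UMIs) past 2-fold lower, both with intervals that reach across 0, and the median was 0.04. Of the junction intervals, 2 lay above 0, those of Dok7 (44 and 56 UMIs, 0.27 to 1.47) and of Chrna1, a gene of the rule (56 and 79 UMIs, 0.50 to 1.53), and that of Rapsn (74 and 34 UMIs) lay below 0, from -1.24 to -0.0039.

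Contractile genes were higher in the mutant in most cases, where 57.2% of all measured genes lay above the control. All 6 measured myosin genes were above the control (median 1.01, with 3 at least 2-fold higher), but the myosin median was -0.043 by per-cell means and -0.094 without Myog cells. Also above the control were 13 of 14 thin filament genes (0.95, with 7 at least 2-fold higher), 7 of 8 Z-disc and titin genes (0.99) and all 6 muscle energy genes (1.15). In all other cells of the same libraries the medians of these 4 lists were -0.72, -0.43, -0.45 and -0.23. Those other cells include 18 control and 10 mutant contractile-rich barcodes that missed the rule, against 4 and 7 inside it. The part of such barcodes in either set of medians was not tested. Actc1 and Tnnt1 of the thin filament and Des and Ttn of the Z-disc list belong to the rule that chose the cells, so their levels are a description. Actc1 had 666 and 1345 UMIs (602 and 1736 CPM), a log2 ratio of 1.53. Acta1 had 206 and 462 UMIs (186 and 596 CPM; 1.67), and Tnnt2 89 and 179 UMIs (80.5 and 231 CPM; 1.51). Leaving out the contractile-rich cells took the medians to 0.50 for myosin, 0.62 for the thin filament, 0.16 for Z-disc and titin and 0.42 for energy. The Acta1 ratio became 1.09. Only 2 energy genes kept 20 UMIs without those cells, with a median of 0.20 and 0 at least 2-fold higher. Without Myog cells the thin filament median was 0.37, and the ratios of Acta1 and Actc1 were 0.18 and 0.72. In the 59 and 44 unmixed cells the medians were 0.26 for myosin, 0.90 for the thin filament, 0.94 for Z-disc and titin and 1.12 for energy, and the Actc1 ratio was 1.96. With the genes of the rule removed from the lists, an alternative added after seeing the data, 11 of 12 thin filament genes were above the control in all cells (median 0.95), 12 of 12 in unmixed cells (0.85) and 9 of 12 without contractile-rich cells (0.55). For the 6 remaining Z-disc genes these medians were 0.99, 0.94 and -0.50, so that list turned direction without the contractile-rich cells (0.46 over the 3 genes that kept 20 UMIs).

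**Figure D5:**
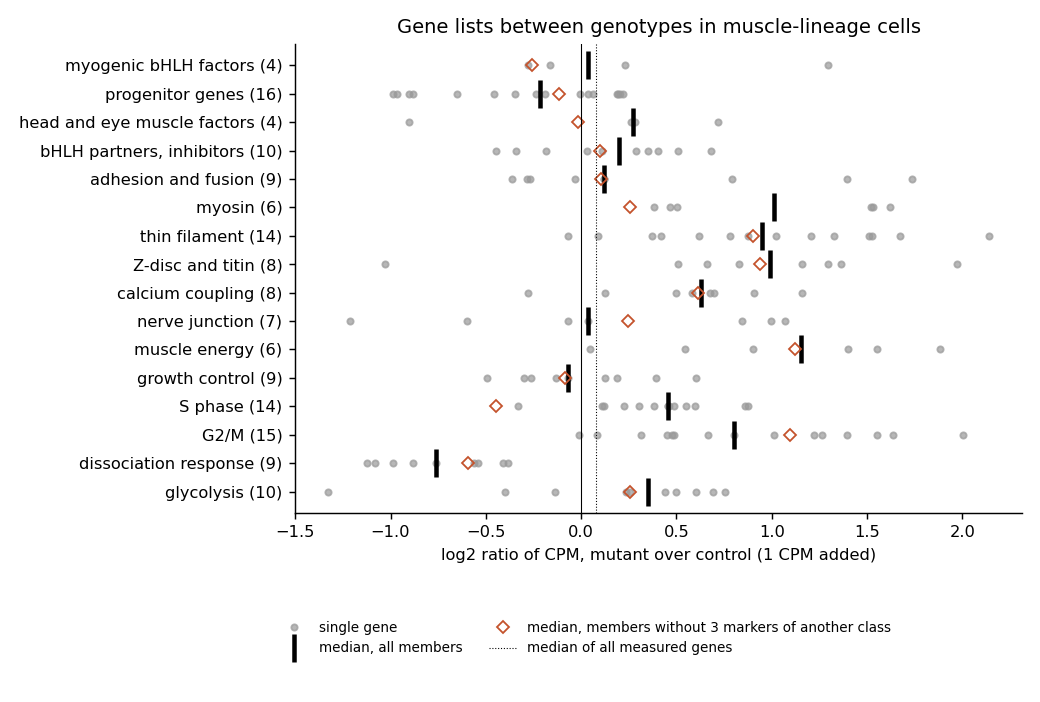
Log2 ratio of CPM, mutant over control with 1 CPM added (x axis), for the measured genes of each list (grey points, number of genes in brackets), with the list's median in all muscle-lineage cells (black bar) and in unmixed cells (orange diamond), and the median of all measured genes as a dotted line. Thin filament genes have medians of 0.95 and 0.90, and the dissociation genes lie to the left at -0.76 and -0.59.

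The remaining lists covered the response to dissociation, division and metabolism. All 9 measured genes of the response to dissociation were lower in the mutant (median -0.76, with 2 at least 2-fold lower), against 42.8% of all measured genes, Fos at 571 and 288 CPM and Junb at 173 and 78.7 CPM, while the list's median in all other cells was -0.02. Of 15 G2/M genes 7 were at least 2-fold higher (median 0.80). In unmixed cells 10 were, with a median of 1.10, and the median was 2.60 without Scrublet-marked cells. S phase genes had a median of 0.46 that was -0.45 in unmixed cells. Glycolysis genes had a median of 0.35 in the lineage and 0.45 in all other cells. Growth genes had a median of -0.07. Among them Dlk1 measured 2492 and 2025 CPM and H19 735 and 838 CPM.

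The genes with the clearest genotype intervals were largely not muscle genes. Higher in the mutant were Lyz2, Ly6c2, Lgals3, Atoh7, S100a8, Acta1, Actc1, Isyna1, Tnni1 and Cd52. All 191 Lyz2 UMIs of the mutant, all 32 Ly6c2 UMIs and all 18 Cd52 UMIs lay in 1 cell each, as did 95.2% of the Lgals3 UMIs and 94.7% of the S100a8 UMIs. Atoh7, a retinal neurogenic gene, had 5 and 39 UMIs in 2 and 6 cells. Other genes of the group were spread more widely, with Isyna1, an enzyme of inositol synthesis also found at 27.1 and 24.8 CPM in all other cells, at 38 UMIs in 17 control cells and 102 in 17 mutant cells (log2 ratio 1.91, and 2.18 in unmixed cells) and Tnni1, the slow troponin I, at 15 UMIs in 6 cells and 49 in 14 (2.14). Isyna1 measured 4.65 and 10.7 CPM in Pax7 or Myf5 cells and 101 and 404 CPM in Myog cells. Lower in the mutant were Krt12, C1qb, Cryba1, Cryge, Pf4, Cryga, Cryaa, Gpha2, Krt15 and C1qa. Krt12 (110 and 0 UMIs, 25.7-fold lower with 3 mutant counts allowed) and C1qb (87 and 0, 20.3-fold) again came almost wholly from 1 control cell each. The upper ends of their log2 intervals were -4.36 and -4.02. The lens crystallin Cryba1 had 72 UMIs in 34 control cells and 0 in the mutant, 16.8-fold lower when 3 counts are allowed over all mutant cells. The upper end of its log2 interval was -3.74. In all other cells it stood at 145 and 0.19 CPM, so the muscle-lineage cells carried the difference of the whole library, and the part of free lens RNA in it was not tested.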

How the data were processed

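Gene expression was measured in 2 single-cell libraries from 10x Genomics 3′ chemistry. Per the labels and the study's methods, the authors counted UMIs with Cell Ranger 7.1.0 against GRCm38 (mm10) and used Seurat 4.1.1 afterwards; the headers of the deposited files name software version 3.1.0. The deposited matrices hold raw counts per gene and barcode, for 14305 control and 12222 mutant barcodes with 79017429 and 76272867 UMIs. No cell annotation was used here. Because 3′ UMI counts are not scaled by gene length and no gene was compared with another per length, levels are read within a gene.

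The study's limits of 200 genes and 15% mitochondrial UMIs were kept. Its upper limit of 2000 UMIs against doublets was tried as an alternative, since 80.2% and 92.1% of barcodes lay above it. Doublets were not removed in the main setting; Scrublet (scanpy 1.11.5, 0.8% expected per 1000 cells) was an alternative, with the expected rate of 11.4% and 9.78% used in both libraries because its own threshold marked 0% of the control. The rule, the gene lists and the tests were chosen with earlier results of these data known. Groups followed the genotype labels.

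UMIs were summed over cells per library and expressed as CPM; log2 ratios add 1 CPM to each side. Genes needed 20 UMIs over both libraries. For ratios without the added CPM the intervals are exact and conditional on the summed counts, for CPM exact Poisson and for shares Clopper-Pearson, all at 95%, and they cover counting error only. A count of 0 was bounded at 3 counts over the group. Reference barcodes held at least 3 markers of their class, mural ones including Rgs5; neural retina barcodes held at least 2 markers of one retinal class. Named genes were the genes of the rule, members of the lists, the 15 leading genes over all other cells among those with 50 UMIs in each library, and the 10 genes per direction with the interval bound farthest from 0 for genotype and for stage, without sex-linked genes for genotype. Mixed cells and contractile-rich cells were defined after seeing the data. The procedure was tested on simulated data. Python 3.11.15, numpy 2.4.6, scipy 1.17.1 and pandas 2.3.3 were used, with edgeR 4.0.16 in R 4.3.3 for trimmed-mean (TMM) scaling (factors 0.9633 and 1.0381). Some genes are not reported here. Gene positions are GENCODE M21 on GRCm38, matched by identifier. Alternatives covered the added CPM, the UMI minimum, per-cell means, TMM, doublet removal, stage, sex, mixing and the rule itself.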

Additional observations from a re-analysis of the deposited data

How the results depend on the processing

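With 1 library per genotype there is no check on replicates, and 171 cells limit most single genes to wide counting intervals. No paired analysis was possible because each genotype had 1 library. Of the alternatives for shares, counts and list medians, 163 values stayed within the limits used (small medians could change sign within them), 32 moved and 4 reversed, and of those for single named genes 122, 37 and 8. The cause of the changes was not tested except where a setting leaves fewer cells or genes. The log2 ratio of the lineage's share was 1.51 under an upper limit of 2000 UMIs (7 and 6 cells), 0.32 outside the neural retina and -2.37 in cells with Xist alone. The Myog share in the control was 22.8% after thinning and 24.1% at 2 UMIs, and in the mutant 28.6% at 2 UMIs, 66.7% under 2000 UMIs and 30.0% in cells with Y-linked UMIs. The G2/M share was 47.2% and 49.2% unthinned, 6.67% and 6.90% at 3 UMIs, and 7.23% and 12.5% without Scrublet-marked cells. Genes at least 2-fold higher and lower numbered 77 and 64 with 10 CPM added, 531 and 446 at 10 UMIs, 76 and 54 at 50 UMIs, 473 and 458 by per-cell means, and 195 and 375 in Myog cells, and 312 and 128 without Myog cells. List medians were -0.54 (head muscle) and -1.07 (S phase) in Myog cells; -0.043 (myosin) and 2.16 (energy) by per-cell means; -0.094 (myosin), 0.23 (Z-disc) and 1.56 (G2/M) without Myog cells; 2.60 (G2/M) without Scrublet-marked cells. Added after seeing the data, they were 0.26 (myosin) and -0.45 (S phase) in unmixed cells and 0.16 (Z-disc) and 0.42 (energy) without contractile-rich cells. These last medians include genes that reached the UMI minimum only through the cells left out. With that minimum applied again, 2 energy genes were left, with a median of 0.20. Of the Z-disc genes outside the rule 3 were left, with a median of 0.46. Single genes reversed without Myog cells (Lyz2 -1.29, Lgals3 -1.96, Pf4 1.70, Krt15 0.41), without Scrublet-marked cells (Pf4 and C1qa, each 0.31) and in unmixed cells (Pf4 and C1qa, each 0.12). Genes at 0 in both libraries gave no value, 4 named genes without Scrublet-marked cells, 4 in unmixed cells and 5 without Myog cells.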
